A study of Mus musculus with 4 samples.

Results

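The CD28 family of costimulatory receptors and their B7 family ligands were followed as 6 genes of the 32285 in the RNA matrices of tumour-infiltrating cells from mice given Tc9 or Tc1 cells. The genes were taken by symbol: the receptors Cd28 and Icos, the adaptor Trat1, and the ligands Icosl, Cd80 and Cd86, and all 6 had counts in both libraries. A T cell that meets antigen needs a second signal, and CD28 on the T cell gives it on binding CD80 or CD86 on an antigen-presenting cell. ICOS appears on T cells after activation, binds ICOSL, and is used by regulatory, follicular helper and type 2 helper T cells. Trat1 encodes a transmembrane adaptor that associates with the T cell receptor complex and is not itself a costimulatory receptor. CTLA4, the inhibitory relative of CD28, binds the same CD80 and CD86 with higher affinity, and regulatory T cells use it to take these ligands from other cells.

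The 2 groups of the study differed in the transferred cells. Thy1.2+ WT B6 mice carrying chimeric tumours received, with an adjuvant, Thy1.1+ Pmel-1 Tc9 cells in one group and Thy1.1+ Pmel-1 Tc1 cells in the other. The Pmel-1 receptor transgene makes CD8 T cells see the melanocyte antigen gp100, and Tc9 and Tc1 are names for CD8 T cells of the interleukin-9 and the interferon-gamma type. Both pools came from 3 mice each, taken on day 30 after tumour inoculation, and both were sorted for CD4 T cells. Each pool gave 1 RNA and 1 T cell receptor library (called Tc9 and Tc1 below), so no group had a replicate and no test between the groups was possible.

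The RNA libraries held 50713493 UMIs (unique molecular identifiers) in Tc9 and 106053410 in Tc1. After filtering, 8204 of 8449 barcodes remained in Tc9 and 11933 of 13406 in Tc1, with a median of 5256.5 and 5404 UMIs per barcode. T lineage clusters held 94.9% of the kept barcodes in Tc9 and 41.0% in Tc1, whose others were largely macrophage-like, monocyte-like, melanoma-like or unnamed. The libraries shared 148 barcode sequences. T cells were split into 4 groups that do not overlap. Shared-receptor cells carried the one TRB chain found on at least 3 barcodes of each library (480 cells in Tc9 and 51 in Tc1). Foxp3 cells were the remaining cells of CD4 clusters with a Foxp3 UMI (1151 and 273), other CD4 cells were those without one (5940 and 2173), and T cells of CD8 clusters were the other group (212 and 2401). The ligands were read in dendritic-like cells (81 in Tc9 and 309 in Tc1) and macrophage-like cells (69 and 2295), named here from marker genes.

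The CDR3 of the shared TRB chain is printed because it alone defines the shared-receptor group. It joins TRBV14 to TRBJ1-6 on chromosome 6 and was found on 487 barcodes of Tc9 and 59 of Tc1 in the receptor libraries, of which 480 and 51 were kept T lineage cells. Capitals mark its first and last codon.
shared TRB CDR3: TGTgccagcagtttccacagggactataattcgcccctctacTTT
The labels do not say which receptor chain the transferred cells carried, so whether these barcodes were transferred cells was not tested. A Cd8a or Cd8b1 UMI was present in 62.1% of the shared-receptor cells in Tc9 and 90.2% in Tc1, a Cd4 UMI in 21.0% and 9.80%, and a Foxp3 UMI in 19.6% and 5.88%.

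The T cell groups of the 2 libraries differed in composition and in RNA of other cell types, and these values belong beside every comparison that follows. A UMI of the macrophage genes C1qa, C1qb or C1qc was found in 1.55% to 4.72% of cells of the 4 T groups in Tc9 and in 31.0% to 41.2% in Tc1. The 7 macrophage markers summed to between 14.1 and 91.5 CPM (UMIs per 1000000 UMIs of the group) in the T groups of Tc9 and to between 171 and 430 CPM in those of Tc1. None was at 0 except Ms4a7 in the shared-receptor cells of Tc9. The 5 melanoma markers summed to between 1.33 and 2.40 CPM in Tc9 and to between 40.7 and 138 CPM in Tc1. Of the Foxp3 cells, 92.6% in Tc9 and 82.8% in Tc1 came from 1 cluster, numbered 6 and led by Foxp3 and Ikzf2. Other CD4 cells came mainly from clusters 3, 1 and 0 in Tc9 (40.1%, 34.4% and 13.6%) and from cluster 4 in Tc1 (58.2%), which was led by the haemoglobin genes Hbb-bt and Hbb-bs. CD8 clusters of Tc9 were nearly all parts of cluster 2. Part 2.0 (24.1% of the group) met the marker rule for regulatory T cells and had their gene Il2ra among its leading genes. Of all barcodes of part 2.0, 81.6% had a Foxp3 UMI, 56.6% a Cd4 UMI and 86.8% a Cd8a or Cd8b1 UMI. A Foxp3 UMI was also present in 55.2% of part 2.1 and 64.7% of part 2.5. Of the Tc1 cells of this group 42.1% lay in cluster 24, led by Gzma and Ccl5. In the CD8 clusters 44.8% of Tc9 cells and 11.6% of Tc1 cells had a Cd4 UMI, and 38.2% and 1.79% a Foxp3 UMI. Of the kept barcodes with the shared TRB chain, 222 of 486 in Tc9 and 3 of 59 in Tc1 lay in CD4 clusters. Shared-receptor cells of Tc1 lay mainly in clusters 2.9 (45.1%) and 11.2 (21.6%), while in Tc9 the largest part was the 15.2% in cluster 0.

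Levels are UMIs of the gene summed over the cells of a group, in CPM. A ratio is Tc9 over Tc1 with an exact 95% interval, and it was counted as higher or lower from 1.5-fold on, with at least 20 UMIs over both libraries and 10 cells in each. The intervals cover counting error only and treat UMIs as independent, so they say nothing of variation between mice.

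The receptors and the adaptor were higher in Tc9 in 10 of 12 comparisons, 3 genes in 4 groups, and lower in none. All 3 were higher in the shared-receptor cells, where 25.7% of all genes were at least 1.5-fold higher, and all 3 in the CD8 clusters, where 18.3% were. Icos and Trat1 were higher in Foxp3 cells, against 17.6% of all genes, and in other CD4 cells, against 7.40%. The median log2 ratio of all genes in the 4 groups lay between -0.22 and -0.04. The direction was not particular to T cell groups. In macrophage-like barcodes Cd28 was 19.0-fold, Icos 45.3-fold and Trat1 23.1-fold higher in Tc9. In dendritic-like barcodes the ratios were 2.87-fold, 5.90-fold and 3.16-fold. A CD3 UMI was present in 31.9% and 53.1% of these Tc9 barcodes. The share of all genes higher in these classes is not given here.

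Cd28, the receptor for CD80 and CD86, was present throughout the T cells. In shared-receptor cells it had 443 CPM in Tc9 and 196 in Tc1, a ratio of 2.26-fold (1.94 to 2.65). In the CD8 clusters it had 435 and 224 CPM, 1.94-fold (1.81 to 2.08). Foxp3 cells had 382 CPM in Tc9 and 273 in Tc1, and other CD4 cells 634 and 466. These last ratios, 1.40-fold and 1.36-fold, stayed under the 1.5-fold limit. With the scaling by trimmed mean of M values (TMM), which set the libraries of these groups apart by a log2 offset of -0.17 and -0.29, they were 0.65 and 0.73 on the log2 scale and passed the limit. Without naive-like clusters and cluster 4 the log2 ratio in other CD4 cells was 0.05. In both libraries other CD4 cells led, with an interval above that of every other group. Second place went to the shared-receptor cells in Tc9, which overlapped with the CD8 clusters, and to Foxp3 cells in Tc1. The level of Cd28 RNA outside T cells varied between classes. Tc1 macrophage-like cells had 18.2 CPM and melanoma-like cells 5.13, but B-like cells 112. In Tc9 fibroblast-like cells had 31.9 CPM, mast or basophil-like cells 72.4 on 6 UMIs, and endothelial-like cells 135. The 69 macrophage-like cells of Tc9 had 344 CPM, and 31.9% of them had a UMI of a CD3 gene. The 47 without one had 154 CPM of Cd28.

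Icos, the receptor for ICOSL, was higher in Tc9 in all 4 groups, by the widest ratios in the shared-receptor cells and the CD8 clusters. Shared-receptor cells had 360 CPM in Tc9 and 39.6 in Tc1, 1625 against 37 UMIs, a log2 ratio of 3.19 (2.72 to 3.70). CD8 clusters had 363 and 43.8 CPM, 8.29-fold (7.53 to 9.14). The Tc1 values of both groups lay well under those of either CD4 group in that library, and overlapped with the 48.1 CPM of its mature dendritic-like barcodes. Other CD4 cells had 398 CPM in Tc9 and 134 in Tc1, 2.96-fold (2.78 to 3.16). Foxp3 cells had 608 and 280 CPM, 2.17-fold (1.99 to 2.37), and were the highest group in both libraries, with intervals that did not reach those of any other group. Tc1 macrophage-like cells had 5.67 CPM and melanoma-like cells 1.77, but B-like cells 54.0 on 14 UMIs. In Tc9 fibroblast-like cells had 16.7 CPM, endothelial-like cells 97.6, and mast or basophil-like cells 121 on 10 UMIs. Higher still were NK-like cells at 134 CPM, type 2 dendritic-like cells at 164 and macrophage-like cells at 257 (189 to 342) in that library. The macrophage-like interval overlapped with that of the Tc9 CD8 clusters. Its 47 barcodes with no CD3 UMI had 132 CPM of Icos.

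Trat1, the adaptor, followed the same direction from lower counts. Foxp3 cells had 149 CPM in Tc9 and 30.6 in Tc1, 1240 against 64 UMIs, 4.87-fold (3.79 to 6.37). Other CD4 cells had 126 and 52.8 CPM, 2.40-fold (2.16 to 2.67), and CD8 clusters 78.1 and 41.0 CPM, 1.91-fold (1.61 to 2.25). In the shared-receptor cells 309 UMIs in Tc9 stood against 4 in Tc1, or 68.5 against 4.28 CPM, with a wide interval of 6.19 to 59.1 around the 16.0-fold ratio. That Tc1 level was close to the 2.84 CPM of Tc1 macrophage-like cells. The Tc9 level overlapped with the 65.6 CPM of Tc9 macrophage-like cells, on 12 UMIs, and the 61.1 CPM of Tc9 NK-like cells. Neither end of this ratio thus stood clear of other classes in its own library. Foxp3 cells were thus the highest group for Trat1 in Tc9, while in Tc1 they lay behind other CD4 cells and overlapped with the CD8 clusters.

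**Figure D1:**
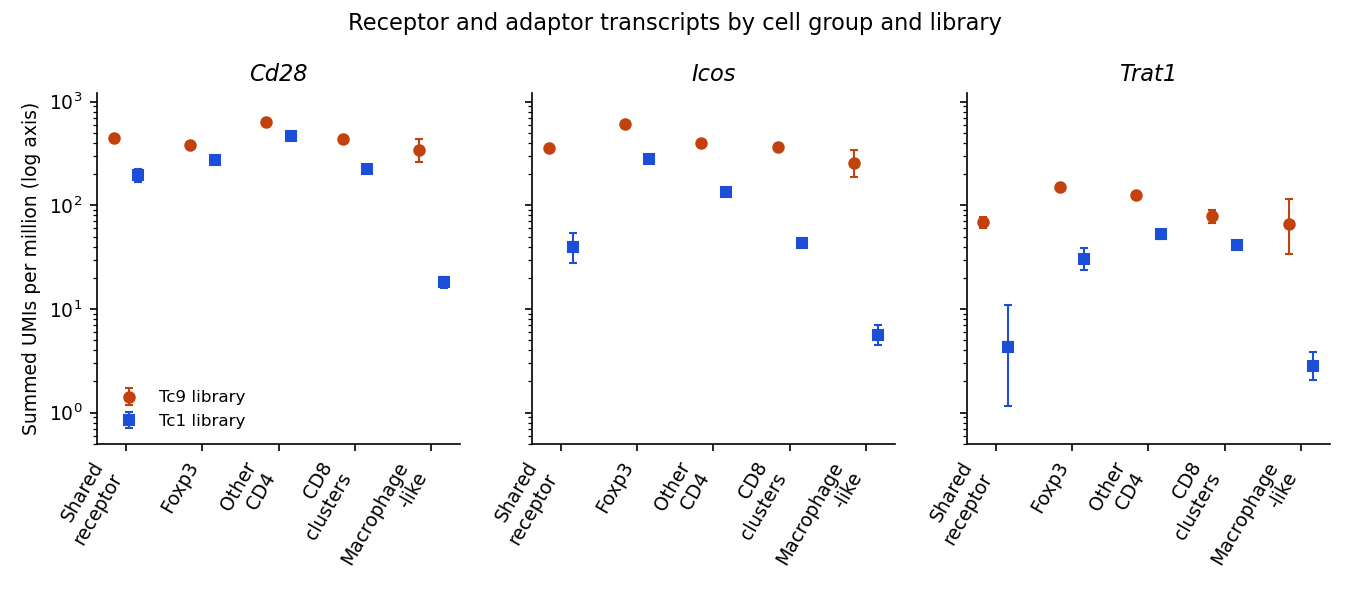
Levels of Cd28, Icos and Trat1 in 4 groups of T cells and in macrophage-like cells (CPM of the group, log axis), with circles for the Tc9 library and squares for the Tc1 library and 95% Poisson intervals of counting error. The circles lie above the squares in every group, among the T cell groups least for Cd28 in Foxp3 and other CD4 cells and most for Icos and Trat1 in shared-receptor cells. The macrophage-like cells of Tc9 are 69 barcodes, of which 31.9% had a UMI of a CD3 gene.

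The ratios of the shared-receptor group and the CD8 clusters were also read in narrower sets of cells. Among shared-receptor cells with a Cd8a or Cd8b1 UMI and no Cd4 UMI (229 in Tc9 and 42 in Tc1), Cd28 was 2.06-fold, Icos 8.48-fold and Trat1 23.0-fold higher in Tc9, the last on 134 against 2 UMIs with an interval of 6.24 to 192. Shared-receptor cells with no Foxp3 UMI (386 and 48) gave 2.36-fold, 9.50-fold and 13.5-fold. In the CD8 clusters, cells with a Cd8 UMI and neither a Cd4 nor a Foxp3 UMI (50 in Tc9 and 1813 in Tc1) gave 2.12-fold, 7.43-fold and 1.94-fold. All 9 ratios passed 1.5-fold, but the share of all genes that did so in these sets was not computed. Without any barcode that had a C1q UMI, a set of cells chosen after the data were seen, Icos in other CD4 cells was 398 CPM in Tc9 and 129 in Tc1, and in Foxp3 cells 605 and 301. Trat1 then had 68.9 CPM in the 465 shared-receptor cells of Tc9 and no UMI in the 30 of Tc1, where a count of 0 allows up to 6.12 CPM.

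The share of cells with a UMI was compared after cells had been thinned to 2000 UMIs, since the median depth of a group ran from 3046 to 16139 UMIs. Cells under 2000 UMIs were left out of the thinned shares, 386 in Tc9 and 343 in Tc1 of the other CD4 cells, 39 and 13 of the Foxp3 cells, 8 and 108 of the CD8 clusters and 2 and 0 of the shared-receptor cells, while unthinned shares are over all cells of a group. Icos was detected in 65.8% of thinned Foxp3 cells in Tc9 and 40.8% in Tc1 (87.7% and 70.7% unthinned), and in 46.4% and 19.6% of other CD4 cells (68.6% and 27.5%). The shares in the CD8 clusters were 46.1% and 7.46% (78.8% and 21.5%), and in shared-receptor cells 42.7% and 7.84% (77.3% and 41.2%). At equal depth the Tc1 share of Icos was the lower one in all 4 groups. Cd28 was found in 64.7% and 53.0% of thinned other CD4 cells (85.4% and 64.4% unthinned) and in 46.6% and 39.6% of Foxp3 cells (75.0% and 66.3%), whose intervals overlapped. Trat1 had 22.5% against 3.85% in Foxp3 cells (44.9% and 15.8% unthinned), and 11.7% against 0 of 51 cells in the shared-receptor group (31.3% and 5.88%), where the 95% upper bound is 6.98%. Macrophage-like cells of Tc1, with a median of 4540 UMIs, gave the background of that library. It was 2.15% for Cd28, 0.429% for Icos and 0.215% for Trat1 (5.36%, 2.27% and 1.09% unthinned). Tc9 macrophage-like barcodes had higher shares. In the 16 thinned ones with no CD3 UMI these were 25% for Cd28, 25% for Icos and 6.25% for Trat1. In the 19 with a CD3 UMI they were 63.2%, 36.8% and 5.26%. In 10 of the 12 pairs of group and gene the whole Tc9 interval lay above the Tc1 interval, and in none below. The share of all genes that meet this rule was not computed, so whether that count is unusual cannot be read from it. Detecting Cd28 said little about detecting Icos in the same thinned cell: Icos was found in 66.6% of Foxp3 cells with Cd28 and 65.2% of those without in Tc9, and in 40.8% of both in Tc1.

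Because the libraries filled different clusters, the ratios were also read inside the 5 CD4 clusters with at least 50 cells from each library, without shared-receptor cells. The share of all genes past 1.5-fold was not computed inside single clusters, so the counts below have none beside them. Icos was at least 1.5-fold higher in Tc9 in 5 of 5, with log2 ratios from 0.74 in cluster 1, led by Cd40lg and Il31ra, to 1.89 in cluster 0, led by the type 2 cytokine genes Il13 and Il5. In cluster 0 that was 425 CPM in 823 Tc9 cells and 115 CPM in 68 Tc1 cells. Trat1 was higher in 4 of 5, with 159 CPM against 29.8 in cluster 6 and a log2 ratio of 0.41 in cluster 1, where it did not pass. Both are among the leading genes of cluster 3. Cd28 passed in none, its log2 ratios running from 0.09 to 0.50. The CPM values of Cd28 outside cluster 6 were 548 to 632 in Tc9 and 475 to 591 in Tc1. Icosl was counted higher in 3 of 5, of which cluster 4 alone (38.5 against 16.1 CPM) had an interval above 1, while clusters 1 and 6 rested on 5 and 11 Tc1 UMIs.

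**Figure D2:**
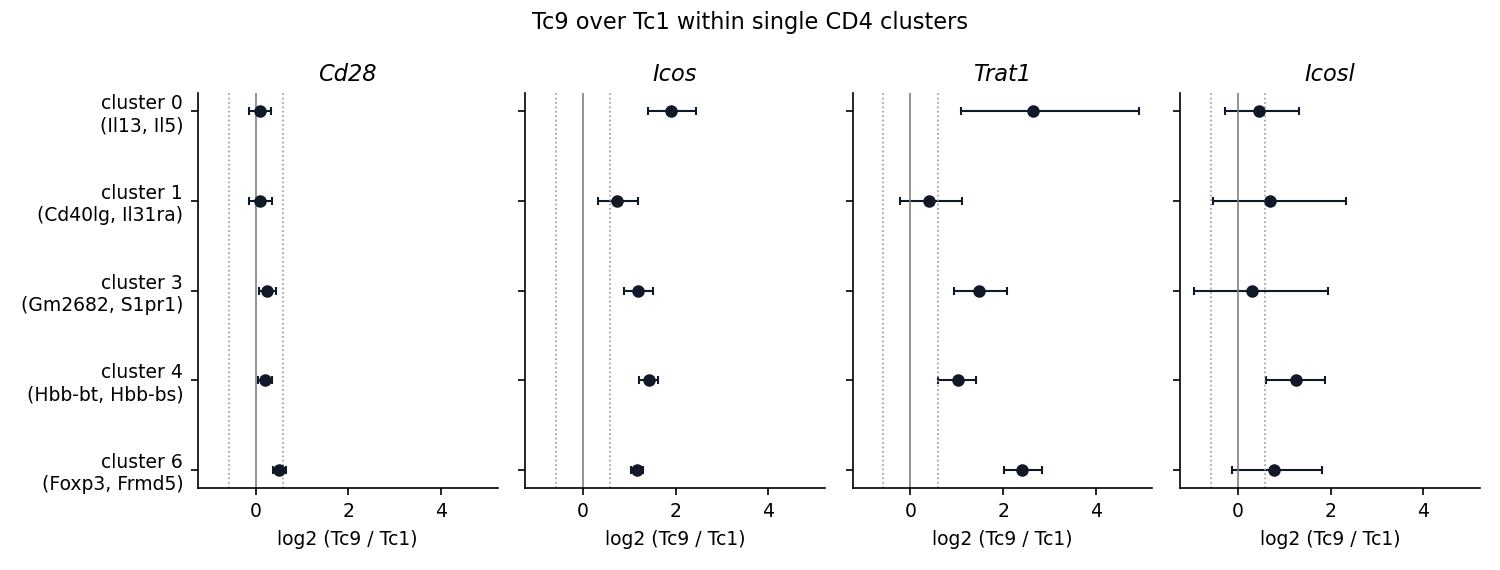
Log2 ratio of Tc9 over Tc1 for Cd28, Icos, Trat1 and Icosl within 5 CD4 clusters, named by number and leading genes, with exact 95% intervals of counting error. The dotted lines mark 1.5-fold in either direction. All Icos points lie right of the upper line, from 0.74 to 1.89, and all Cd28 points lie between the lines.

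Among the cells that present antigen, the 3 ligands differed little between the dendritic-like cells of the libraries, and 0 of 3 passed 1.5-fold in either direction, where 46.4% of all genes did. Icosl had 30.1 CPM in Tc9 and 40.0 in Tc1, a ratio of 0.751-fold (0.464 to 1.16). Cd80, a ligand of CD28 and CTLA4, had 87.6 and 98.2 CPM, 0.892-fold (0.679 to 1.16). Cd86, the other ligand of both, had 228 and 248 CPM, 0.919-fold (0.778 to 1.08). The interval reached past 1.5-fold for Icosl and not for Cd80 and Cd86. As these intervals cover counting error only, they exclude no difference between mice. Of the 174 Cd86 UMIs of Tc9, 36 lay in 1 cell. T cell RNA lay in these barcodes too: a CD3 UMI was found in 53.1% of the dendritic-like barcodes in Tc9 and 49.8% in Tc1, and the 6 T cell markers summed to 1295 and 705 CPM with none at 0. In the 38 and 155 dendritic-like barcodes with no CD3 UMI, Icosl had 31.6 and 48.0 CPM, Cd80 81.3 and 129, and Cd86 402 and 324. Of the 89 Cd86 UMIs behind the Tc9 value 36 lay in 1 cell. There Icosl and Cd80 passed 1.5-fold as lower in Tc9, on 7 and 18 UMIs. Cd28 in these barcodes was 31.6 CPM in Tc9, all 7 UMIs in 1 cell, and 9.72 in Tc1, and Trat1 had no UMI in Tc9 and 5 in Tc1.

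The dendritic-like cells were of 2 kinds. Mature dendritic-like cells, named by Ccr7, Fscn1 and Ccl22, numbered 23 in Tc9 and 75 in Tc1, and type 2 dendritic-like cells, named by Cd209a, Mgl2 and Clec10a, numbered 58 and 234. In the mature cells 1 of 3 ligands passed 1.5-fold, against 52.1% of all genes, and in the type 2 cells also 1 of 3, against 47.4%. Cd86 was lower in mature cells of Tc9, with 119 CPM against 233, or 23 against 276 UMIs, 0.512-fold (0.319 to 0.784). Cd80 in them was 124 CPM in both libraries, and Icosl 51.9 and 49.8 CPM. In the 14 and 31 mature barcodes with no CD3 UMI the picture differed: Cd86 had 239 CPM in Tc9 and 285 in Tc1, less than 1.5-fold apart, while Cd80 had 112 and 184 CPM, more than 1.5-fold lower in Tc9 on 7 against 57 UMIs. In the type 2 cells Cd86 had 264 and 253 CPM and Cd80 75.2 and 88.2, while Icosl had 22.7 and 36.3 CPM, counted lower on 13 against 111 UMIs with an interval of 0.324 to 1.12 that spans 1. Mature cells were the leading class for Icosl and Cd80 in both libraries among the dendritic, macrophage and monocyte classes, although their intervals overlapped with the next class in all 4 cases. In Tc1 barcodes with no CD3 UMI, type 2 cells led for Icosl, at 52.7 CPM against 29.1 in mature cells.

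Macrophage-like cells differed in number and kind between the libraries, and 2 of 3 ligands passed 1.5-fold as lower in Tc9, where 17.2% of all genes did. Cd86 had 71.1 CPM in Tc9 and 232 in Tc1, 13 against 3430 UMIs, 0.307-fold (0.163 to 0.526). Cd80 had 1 UMI in Tc9 and 408 in Tc1, a ratio of 0.198-fold with an interval of 0.00501 to 1.11 that spans 1. With barcodes of at least 1000 genes the Cd80 log2 ratio was 0.60, and with at most 5% mitochondrial UMIs 0.12, so its direction was not settled. Icosl had 2 and 153 UMIs, or 10.9 and 10.3 CPM. T cell RNA differed here too, the 6 T cell markers summing to 1307 CPM in Tc9 and 183 in Tc1. In macrophage-like barcodes with no CD3 UMI the Cd86 gap was narrower, with 121 CPM in Tc9, on 11 UMIs, and 236 in Tc1. Those with a CD3 UMI had 21.8 CPM of Cd86 in Tc9, on 2 UMIs, and 218 in Tc1. Of the 69 Tc9 cells 61 lay in cluster N8, led by Retnla and Ccl8, which held 4 Tc1 cells. Within the Tc1 macrophage-like clusters Cd86 ran from 37.7 CPM in cluster N13, led by Ccl8 and Mmp12, to 1303 CPM in cluster N20, led by Slc8a1 and Pde7b, and Cd80 from 3.11 to 163 CPM in the same clusters. N8 in Tc9 had 60.9 CPM of Cd86. The 1043 monocyte-like cells of Tc1 had 436 CPM of Cd86 and 121 CPM of Cd80, the Cd86 level being the highest of any named class in that library, and Tc9 held 4 such cells.

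**Figure D3:**
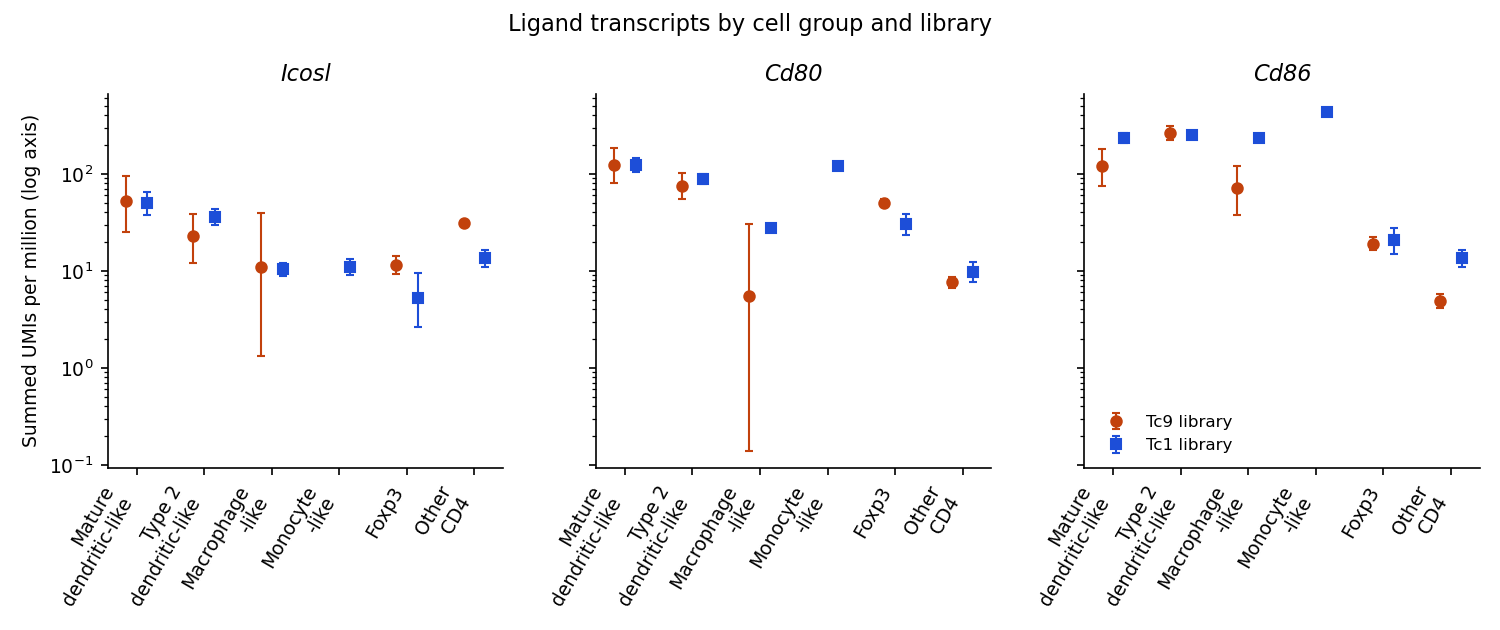
Levels of Icosl, Cd80 and Cd86 in antigen-presenting classes and in Foxp3 and other CD4 T cells (CPM of the group, log axis), with circles for Tc9 and squares for Tc1 and 95% Poisson intervals of counting error. Classes under 10 cells are not drawn, so Tc9 has no monocyte-like point. Icosl in other CD4 cells of Tc9, at 31.0, is as high as in type 2 dendritic-like cells of that library.

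T cells themselves held ligand RNA, and in Tc9 they held most of it. Of all Icosl UMIs in kept barcodes, 81.4% in Tc9 and 10.4% in Tc1 lay in other CD4 cells, and of all Cd80 UMIs 47.1% and 1.63% lay in Foxp3 cells. These shares follow the number of cells of each kind in a library as well as the level per cell. In other CD4 cells Icosl was 31.0 CPM in Tc9 and 13.5 in Tc1, 997 against 100 UMIs, 2.30-fold (1.87 to 2.86). Foxp3 cells had 11.5 and 5.26 CPM, on 96 and 11 UMIs. Shared-receptor cells had 12.6 CPM in Tc9 and 3.21 in Tc1, on 57 and 3 UMIs, with a ratio of 3.94-fold (1.28 to 19.6). In Tc9 the other CD4 cells overlapped with both dendritic classes for Icosl. After thinning, 5.94% of other CD4 cells in Tc9 and 2.57% in Tc1 had an Icosl UMI (13.5% and 4.28% unthinned, median depths 4979 and 3046). Melanoma-like and fibroblast-like cells, taken as background with median depths of 7073 and 12964, gave 0 of 77 and 0.578%.

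Of the 3 ligands, 3 were 1.5-fold apart in shared-receptor cells (53.1% of all genes), 2 in Foxp3 cells (41.6%), 2 in other CD4 cells (33.1%) and 3 in the CD8 clusters (45.0%). Icosl was higher in Tc9 in all 4 groups, Cd86 was lower in 3, and Cd80 went both ways. Cd80 in Foxp3 cells was 50.01 CPM in Tc9 and 30.1 in Tc1, 1.66-fold (1.27 to 2.20), and in the CD8 clusters 23.7 and 12.6 CPM, 1.88-fold (1.37 to 2.53). In shared-receptor cells it was lower in Tc9, with 17.7 against 47.1 CPM, 0.377-fold (0.257 to 0.557), and among those with a Cd8 UMI and no Cd4 UMI 0.343-fold. Cd86 was lower in Tc9 in other CD4 cells, with 4.91 against 13.6 CPM, in shared-receptor cells, with 6.65 against 20.3, and in the CD8 clusters, with 19.6 against 36.7. Foxp3 cells had 19.1 and 20.5 CPM, 0.930-fold (0.661 to 1.34). Macrophage RNA was higher in the T cell barcodes of Tc1, and Cd86 was read again without barcodes that had a C1q UMI. In the CD8 clusters it then had 19.6 CPM in Tc9 and 28.5 in Tc1, less than 1.5-fold apart, so that call ended. In shared-receptor cells it had 6.24 and 14.3 CPM, the Tc1 value on 7 UMIs, in other CD4 cells 4.88 and 13.4, and in Foxp3 cells 19.2 and 24.2.

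Foxp3 cells were set against other CD4 cells of the same library to see how regulatory T cells differ in these genes. Foxp3 cells carried less Cd28 and Icosl and more Icos, Cd80 and Cd86 than other CD4 cells in each of the 2 libraries. For the receptors and the adaptor 5 of 6 values passed 1.5-fold, against 25.8% of all genes in Tc9 and 35.5% in Tc1. Cd28 was 382 CPM in Foxp3 cells and 634 in other CD4 cells of Tc9, and 273 and 466 in Tc1, log2 ratios of -0.73 and -0.77. Icos had log2 ratios of 0.61 in Tc9 and 1.06 in Tc1. The Icos ratio of Tc1 was 0.45 without naive-like clusters and cluster 4, under the limit. Trat1 had log2 ratios of 0.24 (0.14 to 0.33) in Tc9 and -0.79 (-1.19 to -0.40) in Tc1, so its direction was not shared.

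Cd80, which regulatory T cells are known to carry on their own surface or take from other cells, was the ligand with the widest gap. It had 50.01 CPM in Foxp3 cells and 7.62 in other CD4 cells of Tc9, 6.56-fold (5.59 to 7.72), and 30.1 and 9.69 CPM in Tc1, 3.11-fold (2.18 to 4.42). Thinned cells with a Cd80 UMI made up 8.72% of Foxp3 cells and 1.37% of other CD4 cells in Tc9, and 7.69% and 1.91% in Tc1. Cd86 had 19.1 and 4.91 CPM in Tc9, 3.89-fold (3.10 to 4.88), and 20.5 and 13.6 CPM in Tc1, 1.51-fold (1.03 to 2.18). When cells were grouped by their CD3, Cd4 and Cd8 UMIs in place of clusters, the log2 ratios of Tc1 shrank to 0.63 for Cd80, -0.05 for Cd86 and -0.38 for Icosl, so that the Cd86 and Icosl calls of Tc1 ended. The 6 mature dendritic cell markers summed to 189 CPM in Foxp3 cells and 103 in other CD4 cells of Tc9, and to 200 and 210 CPM in Tc1. Il12b was at 0 in the Foxp3 cells of both. Ccr7, another of these markers, also served here as a marker of naive T cells, so the sums do not measure dendritic cell RNA alone. The part of dendritic cell RNA in the Cd80 values was not tested. Icosl went the other way, with 11.5 and 31.0 CPM in Tc9 and 5.26 and 13.5 in Tc1, or 0.372-fold and 0.390-fold. For comparison Ctla4 had 847 CPM in Foxp3 cells and 124 in other CD4 cells of Tc9, and 1026 and 128 CPM in Tc1.

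**Figure D4:**
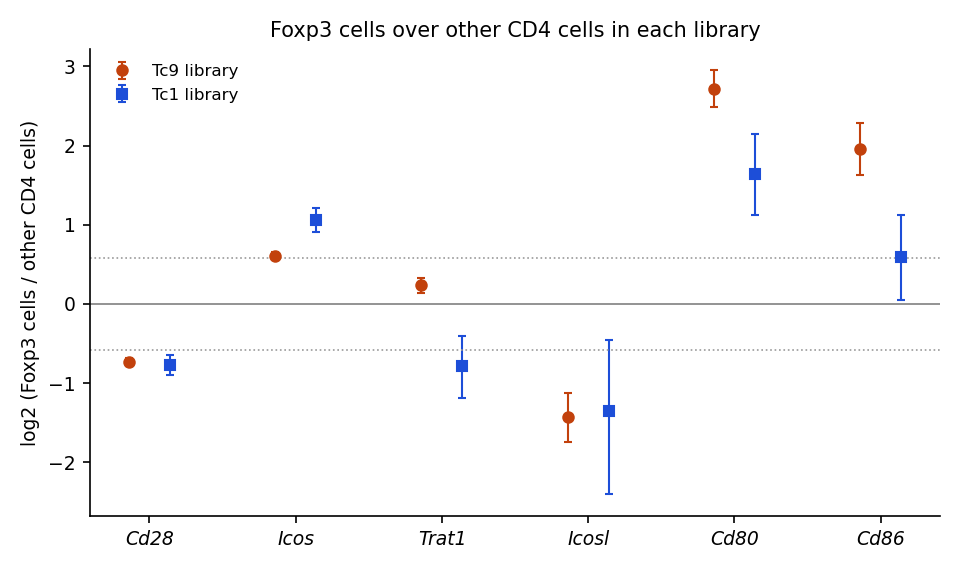
Log2 ratio of Foxp3 cells over other CD4 cells for the 6 genes within the Tc9 library (circles) and the Tc1 library (squares), with exact 95% intervals of counting error and dotted lines at 1.5-fold. Cd28 and Icosl lie below 0 and Icos, Cd80 and Cd86 above it in both libraries, and Trat1 is on opposite sides, at 0.24 in Tc9 and -0.79 in Tc1.

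Icosl in other CD4 cells had a higher level in cells with type 2 features, though it was not confined to them. Il1rl1 encodes ST2, the receptor for interleukin-33, and Il4, Il5 and Il13 encode the type 2 cytokines. Other CD4 cells with an Il1rl1 UMI had 49.7 CPM of Icosl and those without 16.5 in Tc9, 3.01-fold, and 27.8 and 9.35 CPM in Tc1, 2.97-fold. Among all genes 6.31% in Tc9 and 7.39% in Tc1 were at least 1.5-fold higher with Il1rl1. Cells with an Il1rl1 UMI were 39.0% of other CD4 cells in Tc9 and 19.6% in Tc1, and they held 70.0% and 46.0% of the Icosl UMIs. Their thinned share with an Icosl UMI was 9.70% against 3.43% without Il1rl1 in Tc9, and 4.96% against 1.94% in Tc1. A split by a UMI of Il4, Il5 or Il13 gave 54.0 and 24.5 CPM in Tc9 and 23.8 and 11.9 CPM in Tc1, where 6.62% and 8.60% of all genes were higher. Cells with such a cytokine UMI held 384 of the 997 Icosl UMIs in Tc9 and 23 of the 100 in Tc1. Cluster 0, led by Il13, Il5, Il1rl1 and Areg, had 71.9 CPM of Icosl in Tc9 and 52.2 in Tc1.

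The gap between the libraries held on either side of the Il1rl1 split. Icosl was 1.79-fold higher in Tc9 among cells with Il1rl1 and 1.77-fold among cells without, and Icos 2.68-fold and 3.05-fold. Trat1 ran against Icosl within a library, with 94.7 CPM in cells with Il1rl1 and 151 in cells without in Tc9, and 28.4 and 59.8 in Tc1. Icos and Cd28 stayed within 1.5-fold, Icos at 400 and 397 CPM in Tc9 and 149 and 130 in Tc1, and Cd28 at 643 and 626 CPM in Tc9 and 553 and 441 in Tc1. Cells of TRB clonotypes with 3 or more cells had more Icosl than cells alone in their clonotype, 34.7 against 10.8 CPM in Tc9 and 18.3 against 5.66 in Tc1, a log2 ratio of 1.69 in each library. Of all genes 7.95% and 15.3% were higher in this comparison. It rests on 24 and 11 UMIs in single cells, and the 2270 and 611 cells of expanded clonotypes came from 175 and 60 clonotypes.

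**Figure D5:**
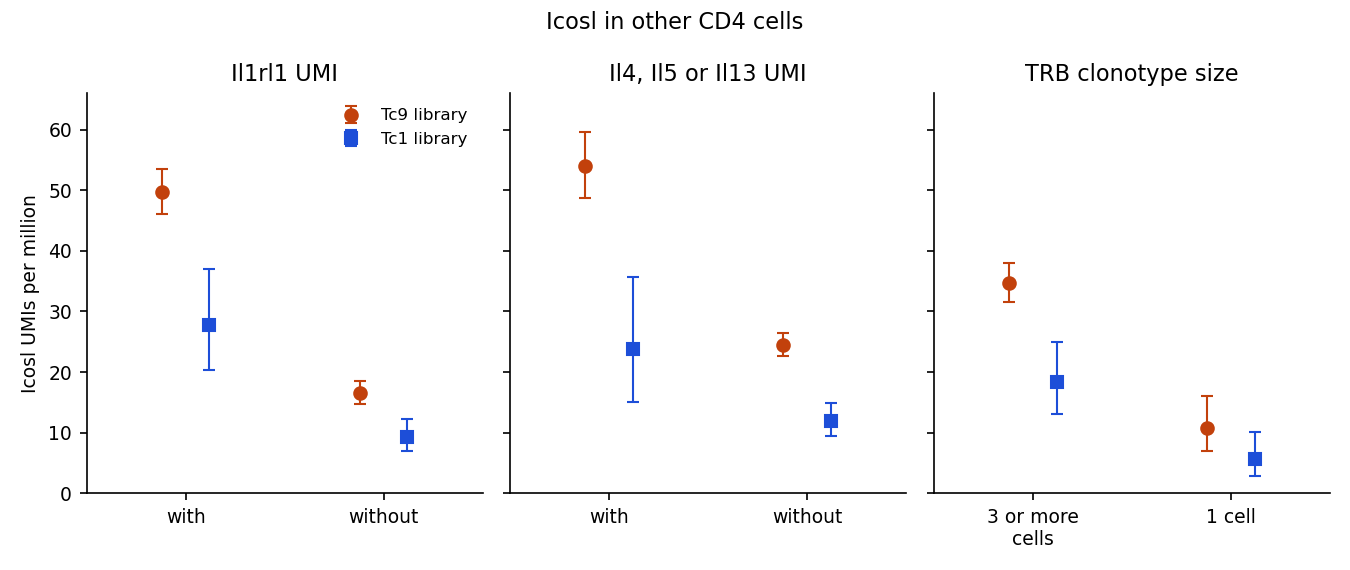
Icosl CPM in other CD4 cells with and without an Il1rl1 UMI, with and without a UMI of Il4, Il5 or Il13, and in TRB clonotypes of 3 or more cells and of 1 cell, for Tc9 (circles) and Tc1 (squares) with 95% Poisson intervals of counting error. In each panel and library the left value is the higher one, with 49.7 against 16.5 for Il1rl1 in Tc9.

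The genes lie on 3 chromosomes of the mouse genome (GRCm38.p6). Cd28 (ENSMUSG00000026012, chr1:60746388-60773359) and Icos (ENSMUSG00000026009, chr1:60960773-61000322) are neighbours on chromosome 1 with Ctla4 (chr1:60909025-60915832) between them, 135665 bases after Cd28 and 44940 bases before Icos. Within this cluster of genes Icos differed most between the libraries in other CD4 cells, while Ctla4 had 124 CPM in Tc9 and 128 in Tc1. Cd80 (ENSMUSG00000075122, chr16:38457430-38495958), Cd86 (ENSMUSG00000022901, chr16:36568956-36666158) and Trat1 (ENSMUSG00000030775, chr16:48730774-48810547) lie on chromosome 16 and Icosl (ENSMUSG00000000732, chr10:78069368-78079525) on chromosome 10. RefSeq promoter sequences were at hand for 3 of the 6 genes, Icosl, Cd80 and Trat1. The 250 bases before the Icosl start are printed because Icosl was the ligand found with Il1rl1 and type 2 cytokines, which the factor GATA3 is known to control. They are given on the plus strand of chr10:78069118-78069367 (GRCm38.p6).
Icosl upstream: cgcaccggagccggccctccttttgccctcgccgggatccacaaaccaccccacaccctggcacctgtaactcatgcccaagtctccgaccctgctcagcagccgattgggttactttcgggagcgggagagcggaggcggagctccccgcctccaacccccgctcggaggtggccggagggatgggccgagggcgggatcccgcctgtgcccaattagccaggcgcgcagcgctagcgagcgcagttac
The letters GATAA, searched on both strands and to be shown in capitals, did not occur in this window, and 22.6% of 32851 RefSeq promoter windows of the same length held them. The window is 68.8% G and C with 23 CpG pairs, where the median promoter has 52.4% and 6 pairs.

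Genes of the wider pathway were counted in lists, at 10 CPM or more in either library. In other CD4 cells 21.1% of all genes at that level were 1.5-fold apart, 366 higher and 1334 lower in Tc9 of 8043, with a median log2 ratio of -0.17. Signalling molecules just below CD28 and ICOS had 3 higher and 0 lower of 23 (median 0.15), among them the NF-kappaB genes Nfkb1, with 720 CPM in Tc9 and 286 in Tc1, and Rel, with 161 and 98.9. Known target genes of costimulation had 5 higher and 1 lower of 10 (median 0.46), with log2 ratios of 1.33 for Egr3, 1.21 for Il2ra and 0.97 for Il4 and -0.89 for the glucose transporter Slc2a1. The inhibitory receptors and their ligands had 0 higher and 1 lower of 6 (median -0.01), the one being Pdcd1, which encodes PD-1, at 24.9 CPM in Tc9 and 91.8 in Tc1. T cell receptor complex genes and adaptors had 0 of 10 apart (median -0.13), with Cd3e at -0.38 and Cd3g at -0.45. Negative regulators of costimulation had 2 higher and 1 lower of 12 (median 0.06), with Zc3h12a at 0.89, Rnf128 at 0.60 and the ubiquitin ligase gene Nedd4 at -1.53.

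In Foxp3 cells 39.0% of all genes at that level were apart, 1313 higher and 1980 lower of 8433, with a median of -0.08. The signalling list had 12 higher and 0 lower of 23 (median 0.62), with Nfkb1 at 1062 CPM in Tc9 and 247 in Tc1. Targets of costimulation had 5 higher and 1 lower of 10 (median 0.81), with Il2ra, the interleukin-2 receptor alpha chain, at 832 and 311 CPM. The inhibitory list had 2 higher and 1 lower of 6, the negative regulators 4 higher and 1 lower of 12, and the receptor complex 0 higher and 3 lower of 11. In dendritic-like cells 46.1% of all genes at that level were apart, and the maturation list had 0 higher and 4 lower of 11 (median -0.35, against 0.20 over all genes). Its lower members were the chemokine gene Ccl22 at 107 CPM in Tc9 and 313 in Tc1, the migration receptor Ccr7 at 332 and 665, Fscn1 at 260 and 416, and Tnfsf4, the OX40 ligand, with 0 UMIs in Tc9 and 77 in Tc1. Mature cells, named by Ccl22, Ccr7 and Fscn1, were 23 of 81 dendritic-like cells in Tc9 and 75 of 309 in Tc1.

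Across 57 sums of a cluster in a library, the genes most like each member were ranked by Pearson r of log2(CPM + 10) among 8694 genes. These points share 2 libraries and differ in depth and cell type. Among the genes most like Cd28 were Bcl11b (0.97) and Skap1, and Icos was most like the transcription factor gene Gata3 (0.93), Cpm and Ppp1r16b. Trat1 was most like N4bp2l2 (0.89), Nfatc3 and Bcl11b. Among the ligands Cd86 was most like Tbc1d9 (0.93), Cd80 most like Smim3 (0.86), and Icosl most like Cd200r1 at a lower r of 0.74. Between the members, r was 0.90 for Cd28 and Icos, 0.89 for Cd28 and Trat1 and 0.77 for Cd80 and Cd86, and 0.36 for Icosl and its receptor Icos.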

How the data were processed

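The submitters made gene-by-barcode UMI counts with Cell Ranger 7.0.0 against GRCm38 (mm10), per the submitters' processing notes, and deposited them as filtered matrices with receptor contigs. Barcodes under 500 genes or over 10% mitochondrial UMIs were dropped and the others clustered with scanpy 1.11.5 (2000 variable genes, 30 components, 15 neighbours, Leiden resolution 1). Names ending in -like need at least 3 markers. Class names were rebuilt here, so differences from the study may come from them. No doublet caller was run. Summed counts were compared as CPM ratios with exact conditional intervals in scipy 1.17.1, shares with Clopper-Pearson intervals at 95%, and a count of 0 was given a limit of 3 counts. No test was made between groups of 1 library each. Ratios were tested on simulated data. Alternatives covered filters, resolution, cell weighting, doublet-like barcodes, free RNA, scaling (TMM by edgeR 4.0.16), grouping and thinning. Named genes were the 6 members, up to 4 per list with the largest ratios in other CD4 cells (dendritic-like cells for maturation), and the 5 most alike per member, of which 1 gene is not reported here. The members and lists were chosen with earlier results of these data known. Gene positions and promoters are RefSeq, GRCm38.p6. Il1rl1, clonotype and C1q splits were added after the data were seen.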

Additional observations from a re-analysis of the deposited data

Results flagged for a closer look

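The Foxp3-over-other-CD4 ratio of Trat1 had opposite signs in the 2 libraries. Its log2 ratio was 0.24 in Tc9 (149 CPM in Foxp3 cells and 126 in other CD4 cells) and -0.79 in Tc1 (30.6 and 52.8 CPM), a difference of 1.02. The intervals of the ratios were 0.14 to 0.33 and -1.19 to -0.40, and the difference itself was not tested, as each library is 1 pool.

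The Tc9-over-Tc1 ratio of Cd80 had opposite signs in different groups of T cells. Its log2 ratio was -1.41 in shared-receptor cells (80 UMIs in Tc9 and 44 in Tc1), 0.73 in Foxp3 cells and 0.91 in the CD8 clusters, differences of -2.14 and -2.32 that were not tested. The 51 shared-receptor cells of Tc1 had a median of 16139 UMIs, against 7744.5 in the 480 of Tc9, and 41.2% against 3.13% of them had a C1q UMI. In the 465 and 30 shared-receptor cells with no C1q UMI, Cd80 had 18.0 CPM in Tc9 and 59.2 in Tc1, on 78 and 29 UMIs.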

How the results depend on the processing

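No paired analysis was possible because each group is 1 RNA library, and for the same reason no replicate could be left out. Over 18 alternatives and 33 ratios, 491 values were computed, of which 11 had another sign than the ratio reported, 3 of them for a ratio past 1.5-fold, and 10 were no longer past it. The 3 were Cd80 in macrophage-like cells, whose log2 ratio of -2.33 became 0.60 with at least 1000 genes and 0.12 with at most 5% mitochondrial UMIs, on 1 Tc9 UMI in the reported value, and Cd86 in Foxp3 over other CD4 cells of Tc1, 0.60 in the report and -0.046 with groups from a UMI gate. The cause was not tested. Of the 491 values, the 33 at a 2-fold limit equal the reported ratios by design, since only the limit changed. Restricting shared-receptor and CD8 cells to those with a Cd8 and no Cd4 UMI likewise left the Foxp3 and other CD4 ratios as they were. The count of receptor and adaptor ratios past the limit was 10 of 12, between 8 (2-fold limit) and 12 (TMM and the UMI gate), all higher in Tc9. The ligand count of 2 of 6 was 4 in barcodes with no CD3 UMI, an alternative added after the data were seen, and 2 or 3 in every other. Foxp3 over other CD4 gave 5 of 6, but 1 at a 2-fold limit and 3 with the UMI gate. Subtracting an expected free RNA share raised the Cd80 log2 ratio of Foxp3 over other CD4 cells in Tc9 to 3.74, against 2.71. That share, 23.9% in Tc9 and 6.91% in Tc1, divides the macrophage and melanoma marker level of CD4 cells by that of all kept barcodes. In Tc9 94.9% of kept barcodes were T lineage, so the profile subtracted there was mostly T cell RNA. The 2 shares therefore do not compare the amount of free RNA between the libraries. TMM offsets were 0.26 in dendritic-like and 0.57 in macrophage-like cells. Depth limits Icosl, Cd80 and Cd86 most, with 1 to 23 UMIs in several Tc9 classes, so differences there were often not detectable.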

Other observations

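Some classes outside the comparisons of the report carried ligand RNA in Tc1, where they were numerous enough to read. The 89 neutrophil-like cells, named by S100a8 and S100a9, had 230 CPM of Cd80, the highest of any named class of that library, and 90.4 CPM of Cd86. The 43 B-like cells had 42.5 CPM of Icosl and 151 CPM of Cd86. Tc9 held 2 and 1 such cells, too few for a value. Unnamed cluster N9, led by Tgfbi, Il1b and Arg1 with 1191 cells in Tc1, had 230 CPM of Cd86 and 57.3 CPM of Cd80, and unnamed cluster N2 with 408 cells had 24.7 and 10.8 CPM. Of the barcodes of N9 and N2, 96.1% and 96.9% had a CD3 UMI, so these sums also hold T cell RNA. Unnamed clusters together held 33.1% of the Cd86 UMIs and 32.4% of the Cd80 UMIs of Tc1, and 2.43% and 0.113% of those of Tc9.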
